A study of Rattus norvegicus with 3 samples.

Results

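The top of the jejunal villus was compared with the middle of the villus in the rat. The top villus sample was the first of the 100 µm fractions counted from the villus tip (0 to 100 µm), and the middle villus sample was the fourth (300 to 400 µm). They are 2 of the 3 samples of a study of the crypt-villus column, the third being a crypt sample from the sixth of 7 fractions (500 to 600 µm). All 3 came from male Sprague-Dawley rats aged 6 weeks, untreated as far as the labels say, and each fraction held 10 frozen cross-sections of 10 µm. The sections cut across the whole villus, so each sample held the epithelium together with the tissue inside the villus. The labels do not give the number of animals. Of 4379 named genes on the array table, 3768 were compared. A gene entered when at least 1 of its probes lay at or above the 25th percentile of its column in top villus (5.15 on the log2 scale) or in middle villus (4.15). A value under that level is called dim. With a dim value on 1 side only the smallest possible difference is known, given as "at least" and called a bound. Probes dim in both parts were left out. A bound therefore holds for the probes compared, not for every probe of the gene. The other 611 genes were dim in both parts.

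Epithelial cells of the small intestine arise by division in the crypt, move up the villus as enterocytes that digest and absorb nutrients, and are shed from the tip into the lumen after a few days. Absorptive work is divided along this path, and the cells near the tip are the oldest. Purine nucleotides and nucleosides reaching the tip can be broken down by surface enzymes, taken up by nucleoside transporters and deaminated inside the cell.

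Each part had 1 sample on 1 array column, so differences could not be checked against replicates, and p-values are not given. Precision is limited by this number of arrays. The values were log2 values without units, with medians of 7.57 in top villus and 7.83 in middle villus. Error could be judged only from probes that share a gene. Their pooled SD was 1.05 for the log2 difference between top and middle villus (247 genes measured in both parts by more than 1 probe), so a gene measured by 1 probe stood outside 2 SDs at 4.27-fold. Genes were called higher or lower in top villus at 2-fold, a log2 difference of 1. Of the 3768 genes, 1112 were higher (29.5%) and 1033 lower (27.4%). These shares are the background for every count by list below. The dim level lies 1.00 higher in top villus than in middle villus, so a gene dim only in middle villus was nearly always past 2-fold by construction. Of the 418 genes with such bounds 405 were called higher, and of the 440 dim only in top villus 288 were called lower. Among the 2905 genes measured in both parts 704 were higher (24.2%) and 745 lower (25.6%). With a common level of 6 on the log2 scale for both columns, 769 of 3482 were higher (22.1%) and 966 lower (27.7%). At that level a bound from 1 probe is smaller by 3.62-fold where the gene is dim in middle villus and by 1.81-fold where it is dim in top villus. At 4-fold 519 were higher (13.8%) and 515 lower (13.7%), and outside 2 SDs 471 were higher and 480 lower. The median difference was 0.00, and it was 0.24 after the columns had been shifted to a common median.

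The enterocyte genes Krt20 and Fabp2 set both villus samples apart from crypt but did not tell top from middle villus. Other markers, among them Jchain of plasma cells, did differ between top and middle villus and are given below. Krt20, a keratin of differentiated enterocytes, had a log2 value of 14.52 in top villus, against 14.37 in middle villus and 10.45 in crypt. The fatty acid carrier Fabp2 had 15.14 in top villus, against 15.29 in middle villus and 9.07 in crypt. Of 36 cell cycle and DNA replication genes on the table, 21 were dim in both villus parts, among them Mki67, Cdk1 and Mcm2. The 10 smooth muscle markers summed to 15214 on the linear scale in top villus and 14059 in middle villus. Markers of neurons, glia and red blood cells were listed, but 0 of them are on the table.

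**Figure D1:**
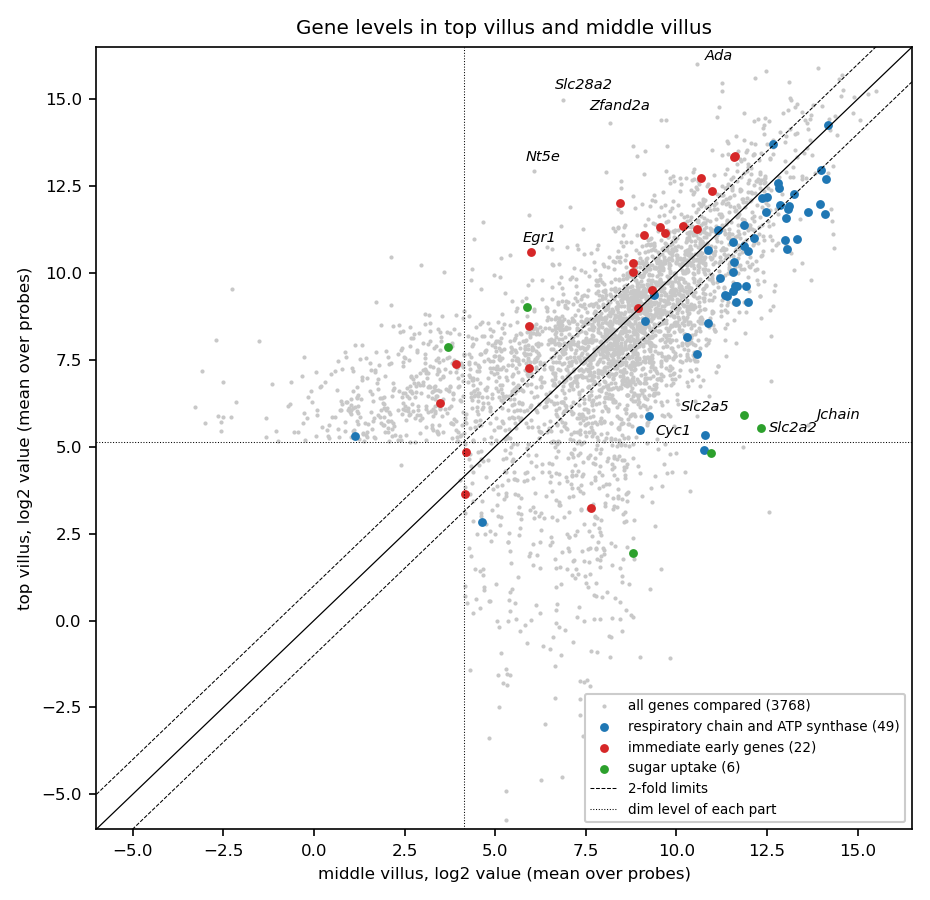
Log2 value in top villus (vertical axis) against middle villus (horizontal axis) for the 3768 genes compared, each point being the mean over a gene's probes in 1 sample per part. Dashed lines mark 2-fold and dotted lines the dim level of each part (5.15 in top villus, 4.15 in middle villus). Most respiratory chain genes lie under the diagonal, most immediate early genes over it, and Slc2a2, Slc2a5 and Jchain lie far under it.

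Several genes of purine and nucleoside handling were far higher at the top. Slc28a2, the sodium-coupled transporter that takes up purine nucleosides, had the largest difference of all genes measured in both parts. Its log2 value was 14.99 in top villus, against 6.87 in middle villus, a difference of 8.12 (7.63 to 8.38 over 11 alternative settings). In crypt it was 8.26, so the middle villus was the lowest of the 3 samples. Nt5e, the surface enzyme that turns AMP into adenosine, stood at 12.92 in top villus and 6.08 in middle villus, a difference of 6.84, and was dim in crypt. Ampd3, an AMP deaminase, reached 10.97 in top villus, against 4.41 in middle villus. That middle villus value lies close to the dim level, and at the common level the difference of 6.56 became at least 4.97. Ada, which deaminates adenosine to inosine, had 15.997 in top villus and 10.56 in middle villus. Its top villus value was the highest of the column and close to 16, the log2 ceiling of a 16-bit scanner, as was that of the nucleotide phosphodiesterase Enpp3 (15.81, against 12.48 in middle villus). Their differences of 5.44 and 3.32 may therefore be too small.

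The steps after inosine and the enzymes for pyrimidines did not share this gain. Pnp, which splits inosine, differed by -0.70, within the limit. Xdh, which makes uric acid, and guanine deaminase (Gda) differed by -1.04 and -1.24, which became -0.78 and -0.98, inside the limit, after scaling to a common median. The pyrimidine enzymes Upp1 and Dpyd differed by -2.42 and -2.28, and adenosine kinase (Adk), which returns adenosine to AMP, was at least 7.48-fold lower. The pyrimidine nucleoside transporter Slc28a1 was within the limit at 0.47. Across the list 7 of 15 genes were higher (46.7%, beside 29.5% of all genes) and 5 lower (33.3%, beside 27.4%) in top villus. Its median of 0.47 fell to -0.26 when the difference was corrected for its trend with level, so the list as a whole had no settled direction.

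Sugar uptake was the list furthest below 0. Slc2a2, the transporter that passes glucose and fructose into the blood, had 5.55 in top villus, against 12.33 in middle villus and 9.34 in crypt. Slc2a5, the brush border fructose transporter, had 5.91 in top villus, against 11.86 in middle villus and 9.06 in crypt. Both were highest in middle villus and close to the dim level at the top, and they differed by -6.78 and -5.95. Sucrase-isomaltase (Si), which splits sucrose and starch fragments, was dim at the top and at least 55.7-fold lower there. The sodium-glucose cotransporter Slc5a1 was also dim at the top and at least 12.7-fold lower. The other 2 genes of the 6 compared went the opposite way. Lactase (Lct) had 9.01 in top villus, against 5.89 in middle villus, and was dim in crypt, a rising order along the column. Slc2a1, a glucose transporter of most cells, was at least 13.3-fold higher at the top (3.69-fold at the common level), where it stood at 7.88, close to the 7.25 of crypt. The list's median was -4.73.

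Enzymes that act on absorbed fructose and make glucose were lower as well, in 5 of 7 genes (71.4%, beside 27.4% of all genes). Their median was -2.88, and -2.61 to -2.88 over the alternatives. Khk, which phosphorylates fructose, had 9.80 in top villus, against 13.70 in middle villus and 13.47 in crypt. Fbp1, a gluconeogenic phosphatase, had 9.48 at the top and 12.69 in the middle over its 2 probes. G6pc1, the subunit that releases free glucose, had 8.52 in top villus, against 11.40 in middle villus, and its partner Slc37a4, which carries glucose 6-phosphate into the endoplasmic reticulum, differed by -2.75. The entry enzyme of gluconeogenesis stood apart from these. Pck1 had 11.11 at the top and 11.55 in the middle, within the limit, and pyruvate carboxylase (Pc) was higher by 1.16.

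**Figure D2:**
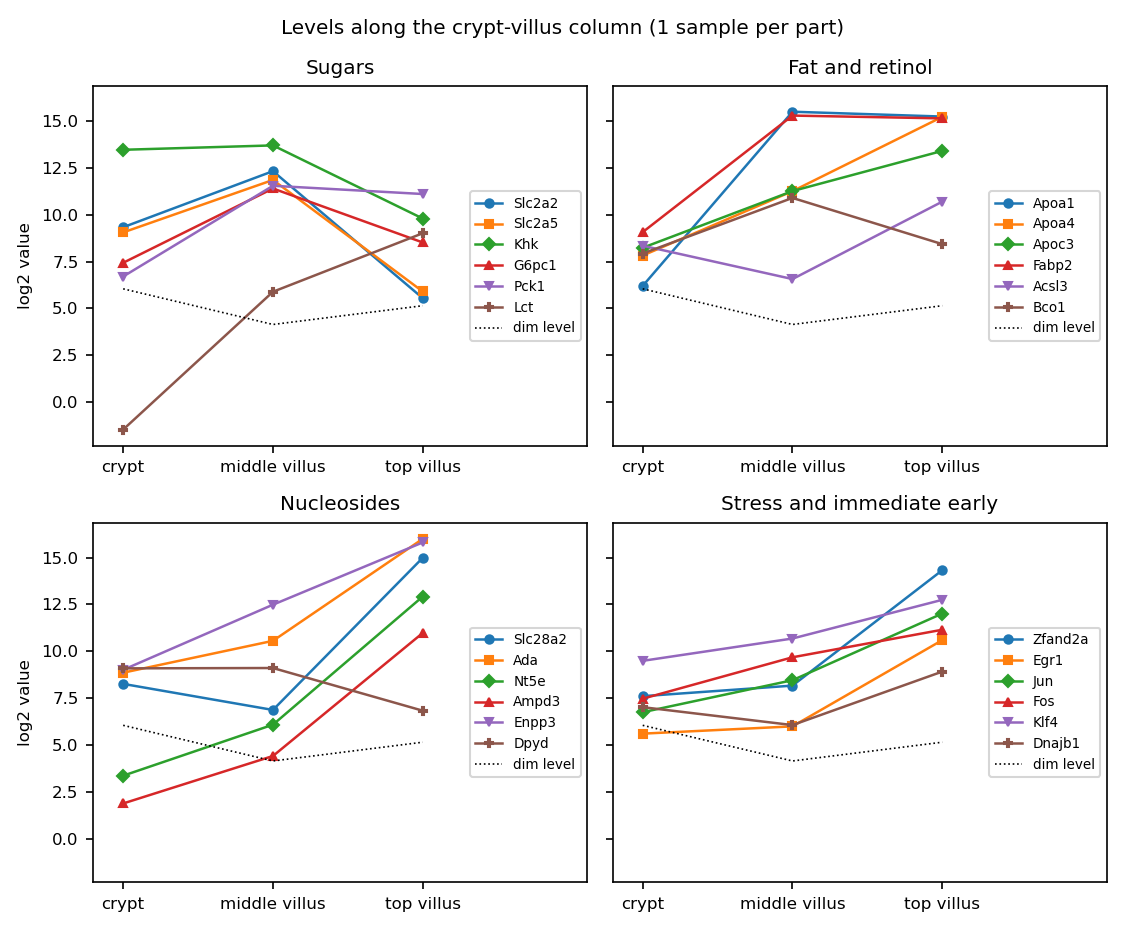
Log2 values (vertical axis) of genes of sugar handling, fat and retinol handling, nucleoside handling and the stress and immediate early response in crypt, middle villus and top villus, 1 sample per part. The dotted line joins the dim levels of the 3 columns. Slc2a2 and Slc2a5 are highest in middle villus, Apoa1 and Fabp2 are level between middle and top villus, and Nt5e, Ampd3 and Egr1 are highest at the top.

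Genes of fat absorption were mostly level or higher at the top. For fat uptake and chylomicron formation, 9 of 21 genes were higher in top villus (42.9%, beside 29.5% of all genes). Of the others 2 were lower and 10 within the limit, and the list's median was 0.29. Apoa1 had 15.24 in top villus, against 15.50 in middle villus, and Fabp1, Fabp2, Dgat1 and Mttp also differed by less than 0.30 in size. The 4 lipid genes with the largest gains were of several kinds. Apoa4, an apolipoprotein of chylomicrons, had 15.22 in top villus, against 11.26 in middle villus and 7.82 in crypt. Acsl3, an acyl-CoA synthetase, had 10.70 in top villus, against 6.57 in middle villus and 8.35 in crypt. Lipa, the lysosomal lipase, stood at 14.49 at the top and 11.12 in the middle, and Acsl4 at 8.03 at the top and 5.02 in the middle. Apoc3 and Apoc2, smaller apolipoproteins of the same particles, were higher by 2.14 and 1.82. The lower pair was Acsl1 at -1.51 and the monoglyceride lipase Mgll at -1.29.

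Vitamin A handling was lower in 4 of 7 genes (57.1%, beside 27.4% of all genes) and higher in 2 (28.6%, beside 29.5%). Bco1, which cleaves carotene, had 8.43 in top villus, against 10.90 in middle villus, and Rbp2, the carrier of retinol in the enterocyte, had 12.88 at the top and 14.19 in the middle. The retinol dehydrogenase Rdh7 went the other way, at 14.43 in top villus and 12.27 in middle villus, and the retinol carrier of blood, Rbp4, was at least 7.75-fold higher.

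Protein digestion and amino acid uptake were lower in 7 of 12 genes (58.3%, beside 27.4% of all genes) and higher in 1 (median -1.32). Anpep, an aminopeptidase, had 11.48 in top villus, against 14.28 in middle villus and 11.59 in crypt. Dpp4, which removes dipeptides, had 7.53 at the top and 10.48 in the middle. The amino acid exchangers Slc7a8 and Slc7a7 and their shared heavy chain, Slc3a2, differed by -3.17, -1.73 and -2.51. The exception was Slc15a1, the transporter of small peptides, with 13.42 in top villus and 12.14 in middle villus, but its difference of 1.28 became 0.82 after quantile normalization, inside the limit. Mep1a, Mme and Ace, also brush border peptidases, were within the limit.

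Of 13 genes of metal and vitamin uptake 5 were higher and 3 lower in top villus, shares of 38.5% and 23.1% beside 29.5% and 27.4% of all genes. Ferritin light chain (Ftl1), which stores iron, had 15.48 in top villus, against 13.09 in middle villus, while its heavy chain Fth1 differed by 0.56. The zinc transporters Slc30a2 and Slc39a4 differed by 2.42 and 1.14, and the second became 0.31 after quantile normalization, inside the limit. Cubn, a receptor for vitamin B12 bound to intrinsic factor, was higher by 2.19, and Slc5a6, a vitamin transporter, was lower at -1.97. The calcium carrier S100g had 11.13 in top villus, against 14.33 in middle villus and 10.43 in crypt, and Atp2b1, a calcium pump, differed by -1.73.

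Ion and water transport held some of the widest gaps in both directions, with 7 of 19 genes higher and 4 lower. The shares of 36.8% and 21.1% stand beside 29.5% and 27.4% of all genes. Slc13a2, a carrier of citrate cycle intermediates, was at least 103-fold lower in top villus, where it was dim, against 11.83 in middle villus. Car4, a carbonic anhydrase of the cell surface, had 6.11 at the top and 11.08 in the middle. Water channels moved apart. Aqp7, which also passes glycerol, had 13.65 in top villus, against 8.80 in middle villus, and Aqp3 had 12.66 at the top and 10.61 in the middle, whereas Aqp8 was at least 13.9-fold lower and Aqp1 was within the limit. The sodium-proton exchangers Slc9a2 and Slc9a3 and the guanylate cyclase ligands Guca2a and Guca2b were within the limit.

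The respiratory chain was lower as a group. On the list of respiratory chain, ATP synthase and citrate cycle genes, 32 of 49 were lower in top villus (65.3%, against 27.4% of all genes compared) and 2 were higher, with a median of -1.36. The median lay between -1.65 and -1.09 over the alternatives. Cyc1, the cytochrome c1 of complex III, had 5.34 in top villus, against 10.80 in middle villus. Cox6c, a subunit of complex IV, was at least 49.3-fold lower, dim at the top, against 10.77 in middle villus and 14.01 in crypt. Idh3a, of the citrate cycle, had 5.49 at the top and 8.99 in the middle, and Ndufv1, of complex I, had 5.89 at the top and 9.25 in the middle. The lower members came from complexes I, II, III, IV and V. The ATP synthase subunits Atp5pb, Atp5po and Atp5pf differed by -2.40, -2.36 and -2.32. The exceptions were citrate synthase (Cs), higher by 1.05, and Ndufv3, at least 2.24-fold higher. Both calls were lost after quantile normalization, at 0.45 for Cs and 0.19 for Ndufv3. Malate dehydrogenase 2 (Mdh2) and Sdha were within the limit at 0.06 and -0.37.

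After these values had been seen, 3 gene families were counted by the prefix of their symbols. Of 34 mitochondrial ribosomal proteins compared, 28 were lower in top villus (82.4%, beside 27.4% of all genes) and 0 were higher. Their median was -1.67, with a range from -3.78 to -0.03. Mrpl3, Mrpl18 and Mrpl15 had the largest differences measured in both parts, at -3.69, -3.67 and -3.60. Of 10 mitochondrial import genes 8 were lower (80%) and 0 higher. Tomm20, a receptor on the outer membrane, had 5.89 in top villus, against 10.57 in middle villus, while Tomm22, of the same complex, was within the limit at 0.45. All complex I genes and assembly factors on the table gave 11 lower (64.7%) and 1 higher of 17. Families counted after the values had been seen describe these samples and support nothing further.

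**Figure D3:**
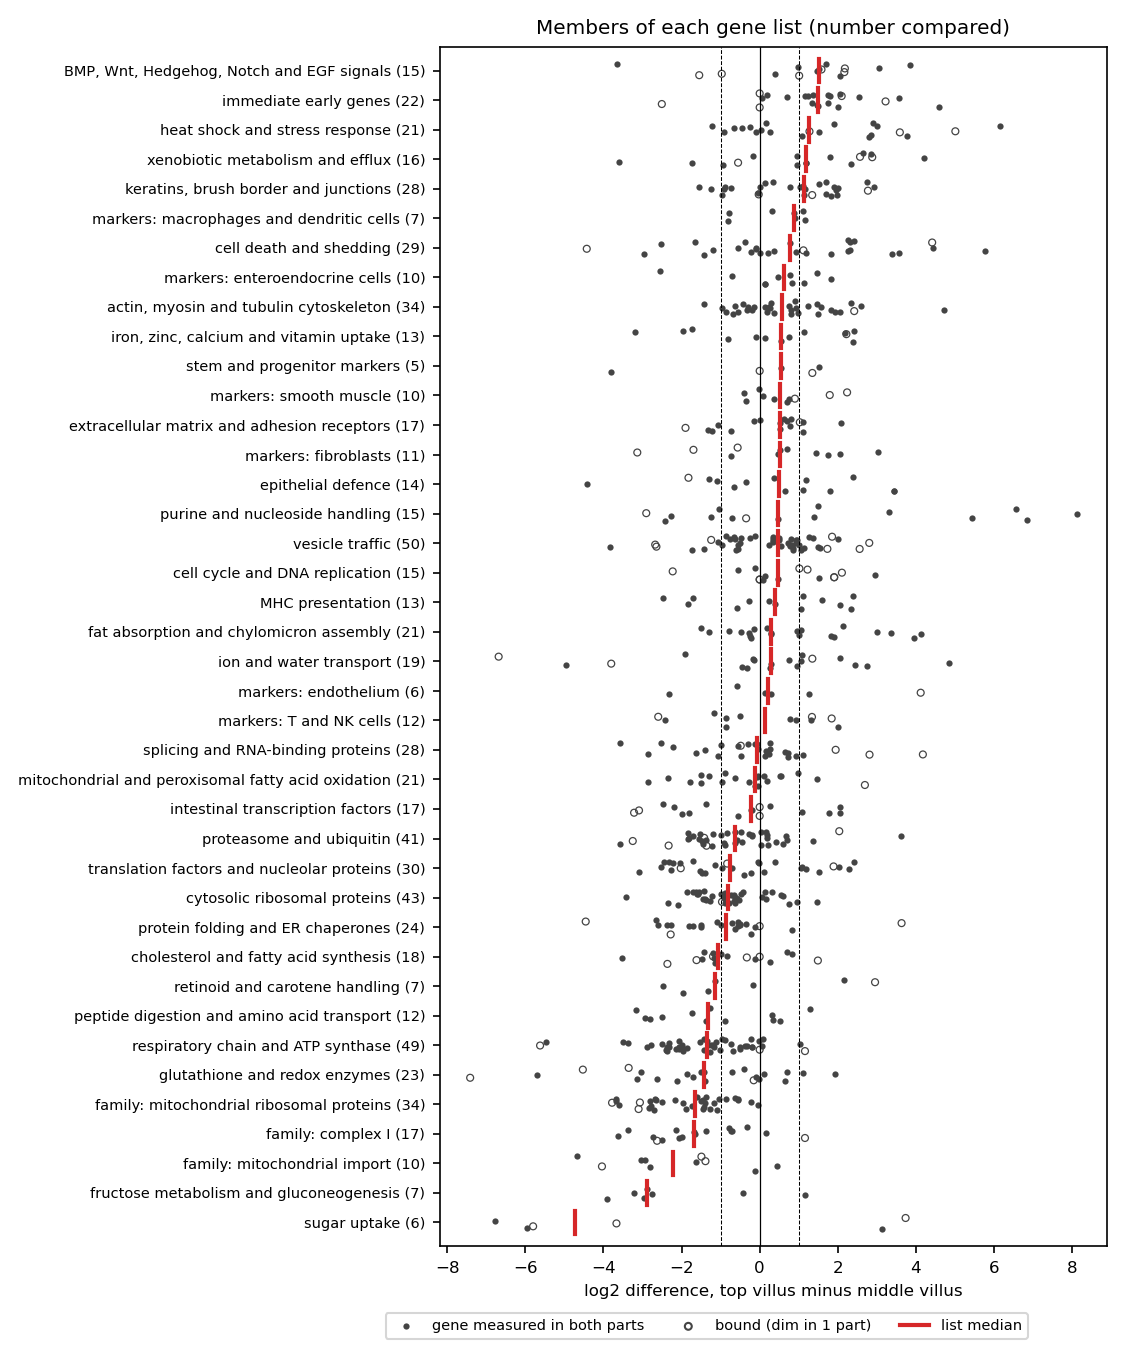
Log2 difference, top villus minus middle villus (horizontal axis), for each member of the lists and families with at least 5 genes compared, ordered by their median (red bar). Filled points were measured in both parts, open points are bounds, and dashed lines mark 2-fold. Sugar uptake, fructose metabolism, the mitochondrial families, glutathione enzymes and the respiratory chain lie at the bottom. Fatty acid oxidation, with a median of -0.13, lies further up, and signalling, immediate early and stress genes lie at the top.

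Genes of fatty acid oxidation were more mixed. Of 21 genes 6 were lower, close to the background share, and 2 higher, under it, with 13 within the limit. The median was -0.13 and lay between -0.50 and 0.14 over the alternatives, so its sign was not settled. Echs1 and Acaa2, which act in the mitochondrial spiral, had 8.87 and 9.06 in top villus, against 11.72 and 11.41 in middle villus. Acadm and Hadh, of the same spiral, were within the limit at 0.53 each.

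The machinery of protein synthesis was lower in part. Of 43 cytosolic ribosomal proteins 15 were lower (34.9%, beside 27.4% of all genes), 1 was higher and 27 were within the limit. Of the 43 differences 34 were below 0, with a median of -0.81. The differences reached -3.42 in Rps10 and -2.34 in Rps19. Rps12, the exception, had 13.13 in top villus, against 11.67 in middle villus and 14.57 in crypt. Among translation factors and nucleolar proteins 13 of 30 were lower (43.3%, beside 27.4% of all genes) and 8 higher (26.7%, beside 29.5%). Eif5a and Npm1, an elongation factor and a nucleolar protein, differed by -3.09 and -2.52, while the nucleolar proteins Nolc1 and Dkc1 were higher by 2.42 and 2.03. Dkc1 had 4.52 in middle villus, near the dim level, and at the common level its difference was 0.55, inside the limit. Nolc1 had 7.86 in top villus and 5.44 in middle villus, both under the 10.54 of crypt.

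Proteasome and ubiquitin genes were lower in 16 of 41 (39.0%, beside 27.4% of all genes) and higher in 3. Psma3 differed by -3.56 and the ubiquitin ligase Nedd4l by 3.62. Chaperones of the endoplasmic reticulum and cytosol were lower in 11 of 24 (45.8%, beside 27.4% of all genes) and higher in 1. Hsp90b1, of the endoplasmic reticulum, was at least 21.9-fold lower, and Dnajb9, of the same compartment, at least 12.4-fold higher (3.43-fold at the common level).

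Glutathione and redox enzymes were lower in 13 of 23 genes (56.5%, beside 27.4% of all genes) and higher in 2. Their median was -1.42, and -1.63 to -1.16 over the alternatives. The alpha class of glutathione transferases led the list. Gsta3 had 6.89 in top villus, against 12.60 in middle villus and 13.41 in crypt. Gsta2 was at least 170-fold lower over its 2 probes, and Gsta4 at least 23.1-fold. Such family members are close in sequence, so their probes may not keep them apart. Gpx2, the glutathione peroxidase of the gut epithelium, had 7.22 in top villus, against 10.36 in middle villus, and Prdx1 had 8.88 at the top and 11.92 in the middle. Heme oxygenase (Hmox1) was higher, with 9.81 at the top and 7.88 in the middle.

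Enzymes and pumps for xenobiotics were higher at the top in 9 of 16 cases (56.25%, beside 29.5% of all genes), with 2 lower. Their median lay between 0.91 and 1.46 over the alternatives. Cyp3a9 had 15.47 in top villus, against 11.27 in middle villus and 7.64 in crypt. Por, which passes electrons to the cytochromes, had 12.74 at the top and 10.10 in the middle, and Cyp4f5 had 12.23 at the top and 9.38 in the middle. Cyp4f1, of the same family, went the opposite way, at 10.73 in top villus and 14.34 in middle villus. The other lower gene was the efflux pump Abcb1a, with 6.73 in top villus and 8.46 in middle villus. Outside the list Cyp4b1 had 11.47 in top villus, against 4.67 in middle villus, near the dim level there.

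Sterol and fatty acid synthesis was lower in 9 of 18 genes (50%, beside 27.4% of all genes) and higher in 1. Fdps, which joins isoprene units, had 6.93 in top villus, against 10.44 in middle villus and 11.87 in crypt, and Cyp51 was at least 5.14-fold lower over its 3 probes. The gene above the limit was Fasn, at 5.64 in top villus and dim in middle villus, but its difference became 0.57 after quantile normalization, inside the limit.

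Immediate early genes, which are induced without new protein synthesis, were higher in 16 of 22 cases (72.7%, against 29.5% of all genes compared) and lower in 1. Their median of 1.48 lay between 1.33 and 1.75 over the alternatives. Egr1, a zinc finger transcription factor, had 10.59 in top villus, against 5.99 in middle villus, and was dim in crypt. Jun had 12.01 at the top, against 8.46 in the middle and 6.75 in crypt. Fos, its dimer partner, had 11.15 at the top, against 9.68 in the middle and 7.47 in crypt. Each of the 3 was highest in the top sample. Klf4, a factor of differentiated epithelium, had 12.74 in top villus, against 10.68 in middle villus, and Zfp36, which destabilises mRNA, had 11.09 at the top and 9.10 in the middle. Nfil3 was the exception, at least 5.68-fold lower, and Nr4a1 and Homer1 were dim at the top with no difference that could be given.

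Serum response factor, which drives many genes of this class, binds a 10-base CArG box. Of 17 of the 22 genes with an entry in the RefSeq promoter table (GRCr8), 4 held such a box within 250 bases before the start, read on both strands, and 501 of all 33469 promoters did (1.5%). The 4 windows with a box are shown here. Their genes were all higher at the top, as were 16 of the 22 genes on the list. Fos and Jun had no promoter entry and were not searched. They are written from the far end to the base before the start, with the CArG boxes in capitals.
Egr1 (chr18:26736828-26737077, plus strand): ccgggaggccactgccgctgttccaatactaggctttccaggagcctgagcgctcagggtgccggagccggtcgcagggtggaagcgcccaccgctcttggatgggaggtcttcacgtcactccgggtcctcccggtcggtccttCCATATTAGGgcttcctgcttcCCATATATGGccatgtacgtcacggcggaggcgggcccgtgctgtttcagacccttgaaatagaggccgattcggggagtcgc
Dusp5 (chr1:262543524-262543773, plus strand): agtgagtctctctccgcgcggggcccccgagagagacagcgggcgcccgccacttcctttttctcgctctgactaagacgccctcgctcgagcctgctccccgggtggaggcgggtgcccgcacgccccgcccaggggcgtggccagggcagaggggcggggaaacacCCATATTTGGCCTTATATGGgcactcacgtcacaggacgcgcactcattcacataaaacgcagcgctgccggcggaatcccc
Zfp36 (chr1:92799109-92799358, minus strand): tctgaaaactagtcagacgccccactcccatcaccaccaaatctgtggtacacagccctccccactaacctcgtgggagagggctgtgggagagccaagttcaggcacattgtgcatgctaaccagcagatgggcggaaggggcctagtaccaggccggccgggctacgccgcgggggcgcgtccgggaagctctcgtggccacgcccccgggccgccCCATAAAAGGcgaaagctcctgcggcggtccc
Klf6 (chr17:69458479-69458728, minus strand): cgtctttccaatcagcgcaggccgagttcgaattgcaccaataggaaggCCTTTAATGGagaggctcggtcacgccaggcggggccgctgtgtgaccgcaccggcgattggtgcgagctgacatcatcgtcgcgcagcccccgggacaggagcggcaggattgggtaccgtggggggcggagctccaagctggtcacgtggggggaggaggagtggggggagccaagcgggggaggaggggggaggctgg
Egr1 and Dusp5 held 2 boxes each, side by side in Dusp5, and Zfp36 and Klf6 held 1. A match is a description of the sequence, not a measured site. Egr1 differed by 4.60, Klf6 by 1.37 and the phosphatase gene Dusp5 by 1.23, and genes without a box, such as Klf4 and Plk2, were also higher.

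Heat shock and stress genes were higher in 12 of 21 cases (57.1%, beside 29.5% of all genes) and lower in 1 (median 1.28). Zfand2a, induced by arsenite and by unfolded protein, had 14.32 in top villus, against 8.17 in middle villus and 7.60 in crypt. The inducible chaperone Hspa1a was dim in middle villus and at least 32.2-fold higher at the top, at 9.16, or at least 8.92-fold at the common level. Its helpers Dnajb1 and Bag3 were higher by 2.85 and 2.79. Chaperones that cells make at all times were not higher, with Hspa8 at -0.91, Hsp90ab1 at -1.23 (-0.95 after quantile normalization, inside the limit) and Hspa4 at 0.03. Ddit3, Trib3 and Sesn2, of the response to amino acid and endoplasmic reticulum stress, were higher by 3.01, 1.91 and 3.78. Atf4, an upstream factor of that response, differed by 0.17, and the cell cycle inhibitor Cdkn1a by 0.26. Over the 15 list genes measured in all 3 parts the median was 0.17, since that choice leaves out members dim in crypt or middle villus.

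Cell death genes were higher in 13 of 29 cases (44.8%, against 29.5% of all genes compared) and lower in 6 (20.7%, against 27.4%). Tnfrsf1b, a tumour necrosis factor receptor, had 10.11 in top villus, against 4.35 in middle villus, which is near the dim level there. Ripk3, the kinase of necroptosis, had 13.37 in top villus, against 8.92 in middle villus and 9.47 in crypt. Receptor 1 and its adaptor, Tnfrsf1a and Tradd, were higher by 2.33 and 1.83. The inhibitor Birc3 was at least 21.4-fold higher (5.91-fold at the common level). Cflar, also an inhibitor, was higher by a log2 difference of 2.25 (at least 1.15 at the common level). The death receptor Fas went the other way, with 6.94 in top villus, against 9.48 in middle villus, and Dffa differed by -1.66. The caspases differed in sign. Casp9, the initiator of the mitochondrial route, was higher by 3.57 (at least 1.95 at the common level), the executioner Casp6 was at least 21.5-fold lower, and the inflammatory Casp1 had 9.35 in top villus, against 12.31 in middle villus. Casp8 and Casp2 were within the limit. Bax, Bad and Fadd were dim in both parts.

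Among 15 genes of signals that pattern the villus 10 were higher (66.7%, beside 29.5% of all genes) and 2 lower, with 6 bounds. Of the 9 measured in both parts 6 were higher and 1 lower, and at the common level 6 of 13 were higher and 1 lower. Areg, a ligand of the EGF receptor, had 11.27 in top villus, against 7.43 in middle villus, and was dim in crypt. Bmp4, a bone morphogenetic protein, had 8.73 at the top and 6.67 in the middle, and the inhibitory Smads of this pathway, Smad6 and Smad7, were higher by 3.07 and 1.70, the first by at least 1.68 at the common level. Ihh, a Hedgehog ligand made by the epithelium, was lower, with 7.99 in top villus, against 11.64 in middle villus and 9.72 in crypt.

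Of 17 transcription factors of the intestine 4 were higher (23.5%, beside 29.5% of all genes) and 7 lower (41.2%, beside 27.4%). Pparg and Vdr, nuclear receptors for fatty acids and vitamin D, were higher by 2.05 and 1.77. Gata4 and Gata5 were lower by -1.38 and -1.98, and the bile acid receptor Nr1h4 was at least 9.29-fold lower. Cdx2 and Creb3l3 were within the limit at -0.22 and 0.26.

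Structural genes of the epithelium were more often higher, in 16 of 28 keratin, brush border and junction genes (57.1%, beside 29.5% of all genes). Of the same 28 genes 2 were lower, and the median was 1.12. Plec, a linker of keratin filaments, had 11.30 in top villus, against 8.38 in middle villus. The tight junction genes F11r, Cldn7 and Tjp1 were higher by 1.82, 2.01 and 1.96, and Ocln differed by -1.26, which became -0.97 after quantile normalization, inside the limit. Epcam had 15.91 in top villus, against 13.92 in middle villus, and its value at the top was also near the scanner ceiling. Krt20 and Cdh1 were within the limit, and the brush border motor Myo1a was lower, at -1.55. Among actin, myosin and tubulin genes 11 of 34 were higher (32.4%, close to the 29.5% of all genes) and 1 lower. The largest difference was that of S100a6, a calcium-binding protein, with 14.41 in top villus, against 9.70 in middle villus.

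Of 14 genes of epithelial defence 6 were higher (42.9%) and 4 lower (28.6%) at the top, beside 29.5% and 27.4% of all genes. Lgals3, a galactose-binding lectin, had 15.60 in top villus, against 12.17 in middle villus and 8.56 in crypt. Cd55, which protects cells from complement, had 12.22 at the top and 8.79 in the middle. Dmbt1, a secreted scavenger protein, ran the other way along the column, with 6.47 in top villus, against 10.89 in middle villus and 13.20 in crypt. Of 13 genes of MHC presentation 6 were higher (46.2%) and 3 lower (23.1%), beside the same shares of all genes. The invariant chain Cd74 was higher by 2.39 and RT1-Ba, of class II, by 1.60 (0.91 after the lowess correction for level, inside the limit), while the immunoproteasome subunits Psmb8 and Psmb9 were lower by -1.85 and -1.70.

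Markers of cells inside the villus and of secretory cells were counted in the same way. In such bulk samples fewer cells of a type and less RNA per cell cannot be told apart. Plasma cell and B cell markers were lower in top villus in 3 of 3 cases. The 4 on the table summed on the linear scale to 1936 in top villus and 17890 in middle villus. Jchain held most of the middle villus sum but little of the top villus sum, most of which was Sdc1. The sums were thus led by different genes. Derl3 was dim at the top, at least 4.85-fold lower (2.69-fold at the common level). Sdc1 differed by -2.03 over its 2 probes, which became -0.63 with the brightest probe, inside the limit. Jchain, the joining chain of IgA and IgM, had the most negative difference of all genes measured in both parts, with 5.62 in top villus, against 13.64 in middle villus and 12.46 in crypt. The mast cell proteases Mcpt1 and Cpa3 were lower as well, at -2.13 and by at least 5.09-fold. Of 12 T and NK cell markers 4 were higher (33.3%) and 3 lower, close to the shares over all genes. Among the higher ones Prf1 and Lck were dim in middle villus and so entered through top villus alone. Their bounds became 0.95 and 0.40 after quantile normalization, inside the limit. At the common level 2 of 10 markers were higher and 3 lower. Gzmb and Gzma, granzymes of cytotoxic cells, had 10.31 and 11.10 in top villus, against 8.31 and 9.77 in middle villus, and Cd3g, of the T cell receptor complex, differed by -2.41. Gzmc, a granzyme outside the list, had 9.54 in top villus and 4.61 in middle villus.

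Macrophage and dendritic cell markers were higher in 2 of 7 (28.6%, close to the share over all genes) and lower in 0. Smooth muscle markers were higher in 2 of 10, both by bounds, and in 0 of 9 at the common level. The 7 measured in both parts were within the limit, such as Myh11 at -0.39 and Tagln at 0.69. Of 11 fibroblast genes 4 were higher (36.4%, beside 29.5% of all genes) and 2 lower (18.2%, beside 27.4%). At the common level 3 of 9 were higher and 1 lower. Vim was higher by 3.02 (at least 1.93 at the common level), and Dcn was at least 8.77-fold lower (4.86-fold at the common level). Fbln1, higher by 1.74, became 0.88 after quantile normalization, inside the limit. Of 6 endothelial genes 2 were higher, and Plvap was lower at -2.32. Among 4 goblet cell products Tff3 and Zg16 were level at 0.21 and -0.07, while Clca1 was at least 37.5-fold lower. Enteroendocrine markers were higher in 3 of 10, the share over all genes, and lower in 1. Chgb, a granule protein, had 12.28 in top villus and 10.46 in middle villus, and Ddc, an enzyme of amine synthesis that other cells also make, had 6.31 at the top and 8.86 in the middle. Of 3 Paneth cell genes 1 passed the limit, Reg3g at 1.18, and it became 0.90 after quantile normalization. The 2 tuft cell markers compared were dim in middle villus and so entered through top villus alone. Ltc4s was at least 12.3-fold higher, or 3.40-fold at the common level, and the bound of Hpgds became 0.67 on the log2 scale after quantile normalization, inside the limit.

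Cell cycle genes were mostly dim in both villus parts. Of the 15 compared, 7 were higher (46.7%, beside 29.5% of all genes) and 1 lower in top villus, and 8 values are bounds. At the common level 2 of 10 were higher and 1 lower. Rfc3, a clamp loader subunit, had 8.03 in top villus, against 5.07 in middle villus and 8.93 in crypt. Stmn1 had 5.81 in top villus, against 5.72 in middle villus and 10.27 in crypt, and Pcna, dim at the top, was at least 4.68-fold lower than in middle villus. Of the 9 stem and progenitor markers listed here, 5 were compared, with 2 higher, 1 lower and a median of 0.55. Hes1, a target of Notch signals, was higher by 1.51, and Hopx had 6.23 in top villus, against 10.03 in middle villus. The bound of Slc12a2 became 0.41 after quantile normalization, inside the limit.

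Outside the lists, the genes with the largest differences measured in both parts covered varied functions. On the higher side they were the DNA glycosylase Mutyh at 5.74, the lipid kinase Pik3c2a at 5.48, the adaptor Nck1 at 5.27, Ypel3 at 5.11, Gch1, which starts tetrahydrobiopterin synthesis, at 4.85, and Pmp22, a membrane protein first known from myelin, at 4.84. Gch1 had 14.41 in top villus, against 9.57 in middle villus and 10.20 in crypt. The middle villus value of Pik3c2a, 4.32, lies near the dim level, and at the common level its difference became at least 3.81. Among genes dim in middle villus the widest bound was that of Rnd1 (at least 79.7-fold, and 22.1-fold at the common level). The kinase Grk5 (at least 67.4-fold) and the phosphatase Inpp5f (at least 58.9-fold) were 18.6-fold and 16.3-fold at the common level. Sapcd2 was at least 42.3-fold higher (11.7-fold at the common level), Zcchc7 27.3-fold (7.55-fold) and Zbtb21 25.3-fold (7.01-fold). Without the detection filter Zbtb21 differed by 3.36, smaller than its bound of 4.66. The transglutaminase Tgm2 was at least 30.5-fold higher (8.44-fold at the common level), with 9.08 at the top and 8.34 in crypt.

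On the lower side Papss2, which makes the sulfate donor of sulfotransferases, had 5.50 in top villus, against 12.27 in middle villus and 9.29 in crypt. It was followed by Prxl2a at -4.44, the histamine-methylating enzyme Hnmt at -4.35, the selenocysteine lyase Scly at -4.24, the esterase Aadac at -4.19, Tmem147 at -3.94 and Rps27l at -3.93. Bounds on this side included the glycerate kinase Glyctk (at least 34.0-fold), Spcs3 of the signal peptidase (28.5-fold) and Emc6 (26.4-fold), of the complex that inserts membrane proteins. Without the detection filter Spcs3 differed by -3.52, smaller in size than its bound of -4.83.

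**Figure D4:**
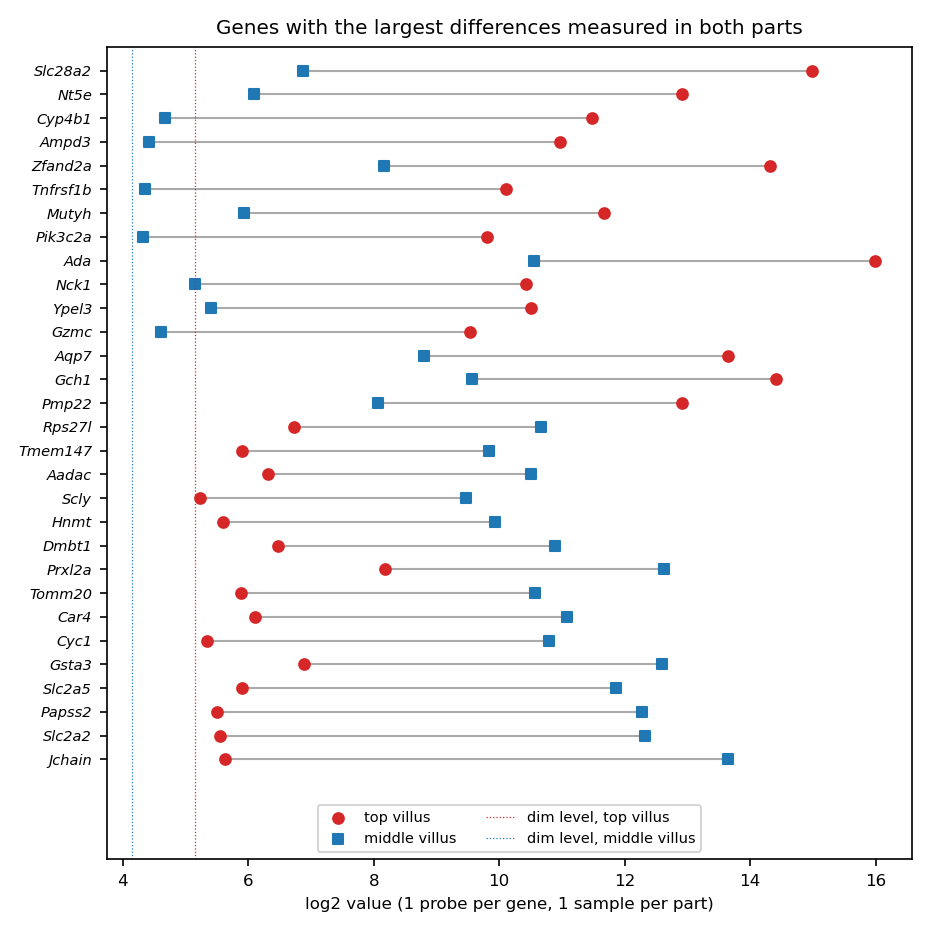
Log2 values (horizontal axis) in top villus (circles) and middle villus (squares) for the 15 genes of each sign with the largest differences measured in both parts, 1 probe per gene and 1 sample per part. Dotted lines mark the dim level of each part. Several of the higher genes start near the dim level in middle villus, and several of the lower genes end near it in top villus, as with Jchain at 5.62 and Slc2a2 at 5.55.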

How the data were processed

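Per the labels, total RNA of each jejunal fraction was labelled with an Agilent linear amplification kit, and Cy3 and Cy5 are named for each sample. The deposited table holds log2 values for 6653 probes and 1 column per part. The log2 scale was read from the values, and the sources used here do not give their normalization or channel. The scanner files, made with ScanArray Express 2.00 per the file headers, carry no spot names or part labels and were not used.

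Probes were named through the platform annotation (4820 with 1 gene symbol, 0 with several, 1833 with none), and symbols were checked by Entrez identifier against the RefSeq table of GRCr8 (4806 found, 0 changed). Values were compared as deposited. Values under a column's 25th percentile were set to it, a bound was not allowed to pass 0, and probe differences were averaged per gene, giving a bound if any probe is one. A limit of 2-fold was used, with no test, as each part has 1 array. The steps were tested on simulated data, with shifts given only to genes with 1 probe at or above the middle villus median. Bounds and averaging over probes were therefore hardly covered by it. Of 327 genes with several probes, 17 had probes past 2-fold on both sides of 0. The 43 lists and the comparison itself were chosen with earlier results of these data known. Named genes are the 15 of each sign with the largest difference measured in both parts and a sign that quantile normalization and median scaling keep, the 8 of each sign with the largest bound, up to 4 list members of each sign, 12 members known for their list, and values within 0.25 of 16. Other list members, and the families counted by prefix, were chosen after their values had been seen. Python 3.11.15, pandas 2.3.3 and statsmodels 0.14.6 were used.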

Additional observations from a re-analysis of the deposited data

How the results depend on the processing

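No paired analysis was possible because each part has 1 sample. The alternatives were quantile normalization, scaling to a common median or 75th percentile, a lowess correction of the difference for level, no detection filter, probes measured in both or in all 3 parts, a linear floor of 32, a common level of log2 6, bounds free to pass 0, the brightest probe and other limits. Genes higher in top villus numbered 728 of 2976 with probes measured in both parts and 555 of 2696 with probes measured in all 3, settings that leave out bounds. A limit of 4-fold left 519 higher and 515 lower, and 2 pooled SDs, added after the data had been seen, left 471 and 480. Under the other settings the counts stayed within 1.5 times those reported. The median of sugar uptake was -6.04 without a filter, -5.95 for its 3 genes measured in both parts and -6.36 for the 2 measured in all 3. That of intestinal transcription factors was -1.47 without a filter, and that of heat shock and stress genes 0.17 over probes measured in all 3 parts. Of 407 list medians under an alternative, 402 moved by less than the pooled SD of 1.05. That span is wider than the 2-fold limit, so a median near 0 can change sign within it. Medians that did so included purine and nucleoside handling (-0.26 to 1.40), T and NK cell markers (-0.50 to 0.78) and epithelial defence (-0.03 to 0.77). Among named genes past 2-fold, 5 changed sign in 1 setting each. Under lowess Hadha became -0.20, Lck -0.28 and Nid1 -0.45, and with the brightest probe Ap2m1 became 0.41 and Mmp14 0.13. Many more named genes fell inside the 2-fold limit in at least 1 setting. Dhrs3 and Lgals2 did so under quantile, median, 75th percentile and lowess scaling. Mt1, Jag1 and Mcm5 did so at the common level and under lowess. The causes of these changes were not tested. Signal close to the dim levels limits the size of differences, and 1 sample per part leaves variation between animals and arrays unmeasured.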

Other observations

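Vesicle traffic and matrix genes were mostly within 2-fold. Of 50 genes of vesicle coats, Rab GTPases and SNAREs, 12 were higher (24%) and 7 lower (14%) in top villus. Both shares lie under the 29.5% and 27.4% of all genes, and 31 genes were within 2-fold. Cltb, a clathrin light chain, had 6.91 in top villus, against 10.73 in middle villus, while the other light chain, Clta, had 14.00 at the top and 13.26 in the middle. Of 17 genes of matrix and adhesion receptors 4 were higher and 4 lower (23.5% each, also under the shares of all genes). The laminin chain Lama5 was higher by 2.09 and its receptor subunit Itgb4 by 1.12 (0.65 after quantile normalization), and basigin (Bsg) was lower, at -1.32.

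Of 28 splicing and RNA-binding genes 4 were higher (14.3%, beside 29.5% of all genes) and 7 lower (25%, close to the 27.4% of all genes). Hnrnpa1, a nuclear RNA-binding protein, had 5.44 in top villus, against 9.02 in middle villus, and Nono had 6.48 at the top and 9.34 in the middle. The splicing factor Srsf9 was at least 18.1-fold higher, or 5.01-fold at a common level of log2 6.

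Probes with no gene name in the annotation were counted too. Of 1523 compared, 532 were higher (34.9%) and 352 lower (23.1%) in top villus, beside 29.5% and 27.4% of the named genes, which average over probes. The higher dim level of top villus adds to the first count. Of the 1097 measured in both parts 311 were higher (28.4%) and 218 lower (19.9%), beside 24.2% and 25.6% of named genes. At a common level of log2 6, 362 of 1372 were higher (26.4%) and 320 lower (23.3%).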
